A study of Drosophila melanogaster with 2 samples.

Results

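The genes described here are 31 regulators of neural development, a named set taken from 13968 protein-coding genes on the main chromosome arms of Drosophila melanogaster. Membership was set by gene name alone, and all 31 names matched the annotation. The set holds proneural and related basic helix-loop-helix (bHLH) factors, patterning factors of the neural midline and columns, SoxB factors, neuroblast factors, factors of asymmetric division and differentiation, the ELAV family of RNA-binding proteins, glial determinants and the sense organ factor Poxn. Binding of pan, the fly TCF, was measured across the genome by chromatin immunoprecipitation and sequencing. The material was whole embryos aged 0 to 24 h from 1 transgenic strain expressing pan fused to enhanced GFP, and the submitters' description gives an antibody against GFP for the immunoprecipitation, while their antibody field reads pan. There was 1 group with 2 biological replicates, and no other genotype, treatment or stage was compared. Whole embryos mix all tissues over the whole of embryogenesis, so a peak cannot be assigned to neural cells, and a site used in few cells cannot be told apart from a site that is weakly occupied in many.

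Pan is the DNA-binding partner of Armadillo (beta-catenin) in Wingless signalling: it represses target genes without the signal and activates them when Armadillo enters the nucleus. In the fly embryo, proneural bHLH factors give ectodermal cells the competence to become neural precursors, and neuroblasts then divide asymmetrically and pass through an ordered series of temporal factors. Wingless is known in this tissue for patterning the segments of the neuroectoderm and for helping specify particular neuroblasts.

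The files used here were the authors' lists of peaks on the dm6 assembly. Ranked lists held 103003 peaks in replicate 1 and 108491 in replicate 2, and the peaks that passed the authors' cut-off for the irreproducible discovery rate (IDR, a measure of recurrence between lists) numbered 4549 and 5348. The pooled conservative list held 6359 peaks, of which 53.0% were also in the passing lists of both replicates and 20.9% in neither. The signal value is the authors' own, on a scale not given in the sources used here, and it serves only for description and order inside a single list. Its median was 120 in the conservative list, 14.1 in the ranked list of replicate 1 and 14.7 in that of replicate 2. Read depth is unknown from these files, a control was not used here, and whether a peak is specific to pan was not tested. A gene's territory below is its annotated body with 2 kb on either side, a summit is the highest point of a conservative peak, and TSS stands for any annotated transcription start site of the gene. The strongest ranked peak of a territory was picked in each replicate separately, so the peaks of a pair need not lie at the same place.

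Windows of 8 of the 16 summits in member territories are shown, because the results turn on the few members that carried one: the strongest at brat, elav, fne, sim, scrt and Rbp9, and the next strongest at brat and elav. The windows of insc, whose strongest summit had a signal of 203, are not shown. Each window spans 101 bp centred on the summit, printed from the plus strand of dm6, 5′ to 3′. Capitals mark letters of the motifs that were searched, on both strands. The motifs were the TCF core (CTTTG followed by AA, AT, TA or TT), the TCF helper site (GCCGCC followed by A or G), the E-box CANNTG, the DREF site, GAGAG, and the Sox site (ACAAT or ACAAAG). A stretch of letters that fits both the Sox site and the TCF core counts for both.
brat, chr2L:19165115-19165215: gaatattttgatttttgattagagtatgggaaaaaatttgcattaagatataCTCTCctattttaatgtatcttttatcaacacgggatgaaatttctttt
elav, chrX:523440-523540: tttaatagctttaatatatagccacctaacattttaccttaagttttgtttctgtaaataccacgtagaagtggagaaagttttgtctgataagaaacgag
elav, chrX:522582-522682: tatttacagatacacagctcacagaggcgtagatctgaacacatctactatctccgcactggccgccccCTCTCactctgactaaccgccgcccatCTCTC
fne, chrX:12925922-12926022: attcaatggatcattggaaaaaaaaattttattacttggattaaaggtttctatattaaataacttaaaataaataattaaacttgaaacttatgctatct
brat, chr2L:19131968-19132068: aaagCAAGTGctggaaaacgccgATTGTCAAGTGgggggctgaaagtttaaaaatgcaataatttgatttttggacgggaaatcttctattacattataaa
sim, chr3R:13068183-13068283: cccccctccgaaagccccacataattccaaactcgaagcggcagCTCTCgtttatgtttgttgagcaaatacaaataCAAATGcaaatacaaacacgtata
scrt, chr3L:3983560-3983660: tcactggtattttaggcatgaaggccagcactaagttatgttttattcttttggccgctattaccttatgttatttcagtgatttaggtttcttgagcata
Rbp9, chr2L:2957665-2957765: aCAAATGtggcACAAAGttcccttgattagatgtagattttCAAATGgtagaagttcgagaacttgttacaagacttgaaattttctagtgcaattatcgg
These windows lay in an intron of brat, upstream of elav, in introns of elav and fne, upstream of brat, in an intron of sim, upstream of scrt and in an intron of Rbp9, in that order. None of these 8 windows held the TCF core, which among all 16 was in 2, both at insc. Their GC content ran from 18.8% (fne) to 53.5% (the intronic elav window). The windows of the strongest elav summit, of fne and of scrt held none of the 6 motifs, the strongest brat window held GAGAG alone, and the remaining capitals mark E-boxes, GAGAG and Sox letters.

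Of the 31 members, 7 had a summit in their territory (22.6%): sim, insc, brat, scrt, elav, fne and Rbp9. Over all protein-coding genes the share was 39.7% (5549 of 13968). Since a longer territory collects more summits, each member was also set beside the protein-coding genes in its own of 20 length bins, and the shares of those bins add up to 14.8 members, or 47.6%. Near the start sites, 5 members had an own TSS with a summit no more than 1 kb away (16.1%), where all genes gave 25.6% and genes of like length 9.43 members. Both member counts lay below the all-gene and the like-length numbers. With gene bodies alone the gap to like length was narrow, at 6 members against 7.75. There, 6 of 31 members was above the all-gene share of 15.2%. The members were named with earlier results of these data known, so the difference is a description and was not tested.

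The members found differed in part between the replicates. In the passing list of replicate 1, 8 members had a peak in their territory (all genes 32.4%, like length 12.3 members), and in that of replicate 2 it was 7 (all genes 36.5%, like length 13.6 members). Replicate 1 held pros beside the 7 genes named above. Replicate 2 held pros and D and lacked scrt and Rbp9. The count near a TSS, 5 in the conservative list, was 4 in replicate 1 (like length 7.29) and 3 in replicate 2 (brat, pros and elav; like length 8.61). The passing lists of both replicates shared 6 members (sim, insc, brat, pros, elav and fne), where all genes gave 28.6% and like length 11.0 members. At pros, the passing peaks of the replicates lay at different places. The longer pooled list gave 9 members (all genes 42.5%, like length 15.6), adding D, pros and Poxn and dropping Rbp9. The members found thus shifted between lists at scrt, Rbp9, pros, D and Poxn, while sim, insc, brat, elav and fne were found in each of these lists.

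**Figure D1:**
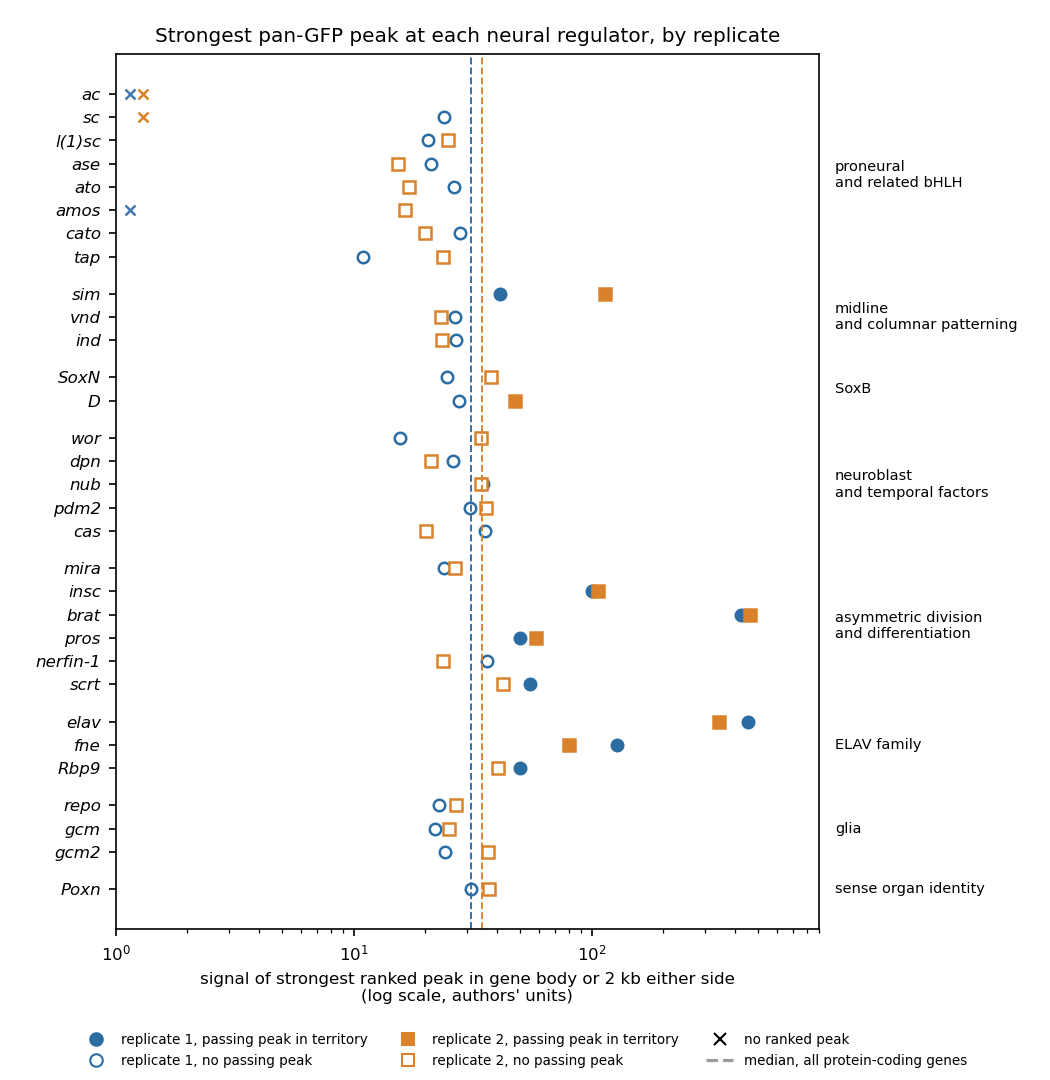
Signal of the strongest ranked peak in each member's territory (log scale, the authors' units), with replicate 1 as circles and replicate 2 as squares, filled where the territory held a passing peak. Crosses at the left edge stand for no ranked peak, and dashed lines give the medians over all protein-coding genes, 31.0 and 34.5; brat and elav stand farthest to the right in both replicates and the 8 bHLH genes lie to the left of both lines.

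The proneural and related bHLH genes carried no summit, at 0 of 8, where genes of like length gave 2.42 members. At ac, which makes sensory organ precursors possible together with sc, neither replicate had a ranked peak in the territory (chrX:370031-370947 and its flanks). At sc, the strongest ranked signal was 24.0 in replicate 1, and replicate 2 had no ranked peak. At l(1)sc, the main proneural gene of the early neuroectoderm, the values were 20.5 and 25.0, and at ase, a factor of the neural precursors themselves, 21.1 and 15.4. These 4 genes form the achaete-scute complex. They lay together in a stretch of 114 kb on the X chromosome without a conservative summit, the 29th longest such stretch of that chromosome, where the median gap between summits was 6.18 kb.

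The remaining genes of this group also had only weak ranked peaks. At ato, the proneural gene of chordotonal organs and photoreceptors, the strongest ranked signal was 26.5 in replicate 1 against 17.1 in replicate 2. At amos, which specifies olfactory sensilla, replicate 1 had no ranked peak and replicate 2 had one of 16.5. At cato the values were 28.1 and 19.9, and at tap they were 11.0 and 23.7. None of the proneural and related bHLH genes exceeded the median over all protein-coding genes in either replicate, 31.0 and 34.5. These genes are also short, from 0.712 to 2.43 kb, and the nearest conservative summit lay 7692 bp (ac) to 47382 bp (l(1)sc) from a TSS of its gene.

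Among the genes that pattern the midline and columns, sim alone had summits. It encodes the bHLH-PAS master regulator of the ventral midline (chr3R:13057755-13078124). The stronger of its 2 peaks (chr3R:13068063-13068402) had a pooled signal of 145 and ranked 2458 of 6359. Its signal was 41.0 in replicate 1 and 114 in replicate 2, and it passed in both. That peak lay in an intron, 4166 bp upstream of the nearest sim TSS. The other (chr3R:13064300-13064639) had a signal of 77.9 pooled, 36.8 in replicate 1 and 40.4 in replicate 2, lay 1948 bp downstream of a TSS, and passed in neither replicate alone. Neither sim peak was within 1 kb of a TSS.

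The columnar homeobox genes were unlike sim. At vnd, which specifies the ventral column, the strongest ranked peaks had signals of 26.6 and 23.2, although the gene is 16.0 kb long. At ind, the gene of the intermediate column, they were 26.8 and 23.6. The 3 genes of this group gave 1 member with a summit, where like length gave 1.65. The SoxB genes, which act across the neuroectoderm beside the columnar genes, had no summit (0 of 2, like length 0.835). At SoxN the strongest ranked signal was 24.7 in replicate 1 against 37.9 in replicate 2. At D (Dichaete) the values were 27.6 and 47.7, and the replicate 2 peak passed. It stood in the longer pooled list with a signal of 56.0 (chr3L:14174312-14174651), 3055 bp from the TSS and past the 3′ end of the gene. In replicate 1 no ranked peak matched it.

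None of the 5 neuroblast and temporal factors had a summit (like length 2.62). The temporal POU genes nub and pdm2 are neighbours, 29.0 kb apart, with lengths of 40.5 and 29.1 kb. At nub the strongest ranked peaks had signals of 35.0 in replicate 1 and 34.2 in replicate 2. At pdm2 they were 30.8 and 36.1. Ranked peaks lay along most of nub in replicate 1, and replicate 2 had a stretch of 17.7 kb within the gene with none. No nub peak passed in either replicate, and the nearest conservative summit lay 51844 bp from a nub TSS. At cas, the zinc finger factor that follows the Pdm proteins in the series, the values were 35.6 and 20.1. At dpn, a bHLH-O repressor found in nearly all neuroblasts, they were 26.1 and 21.1, and at wor, a Snail-family factor of neuroblasts, 15.6 and 34.3. The nearest summit to wor was 73469 bp away, the longest such distance among the members. Together, nub and pdm2 lay in a stretch of 165 kb without a conservative summit, the 13th longest on its arm, and wor in one of 159 kb, the 14th longest on the same arm.

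Asymmetric division and differentiation was the first of 2 groups with several summits, at 3 of 6 members (insc, brat and scrt; like length 3.49). Within 1 kb of a TSS it was also 3 members, above the like-length number of 2.18. The protein of brat is a translational repressor that is inherited by the daughter that leaves the neuroblast state. Its territory held 6 summits, the most of any member. The strongest (chr2L:19165025-19165294) had a pooled signal of 885, rank 99 of 6359, the highest among members. The signal was 423 in replicate 1 (rank 131) and 461 in replicate 2 (rank 88). It lay in an intron 702 bp upstream of a downstream brat TSS. Inside each replicate's list it stood well above all other brat peaks, of which the next had 67.9 in replicate 1 and 111 in replicate 2.

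Next in strength at brat was a peak (chr2L:19131848-19132187) with a pooled signal of 188, with 67.9 in replicate 1 and 111 in replicate 2. It passed in both replicates, lay 1798 bp upstream of the first brat TSS and only 64 bp from the TSS of AsnRS, a tRNA synthetase gene, so its assignment to brat is uncertain. A group of 3 intronic peaks followed, at chr2L:19140885-19141224, chr2L:19141623-19141962 and chr2L:19141823-19142162, with pooled signals of 97.4, 102 and 56.4. The last 2 of these overlap, and Polr1D has the nearest TSS to each. One of the group passed in replicate 1 and none in replicate 2. The remaining peak (chr2L:19162664-19163003) had a signal of 69.4 pooled, 32.5 in replicate 1 and 52.9 in replicate 2, and passed in replicate 2 only. Taking overlapping peaks together left 15 summits in member territories in place of 16.

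The gene insc encodes the adaptor that orients the spindle of dividing neuroblasts. Its 3 summits fell in a territory that also holds sktl, an overlapping lipid kinase gene with a TSS at the insc start and another inside the insc intron. The strongest had a pooled signal of 203 (rank 1502), with 100 in replicate 1 and 106 in replicate 2, and passed in both. It lay 4971 bp downstream of the insc TSS and 1361 bp from that of sktl. The next had a signal of 84.9 pooled, 46.6 in replicate 1 and 46.1 in replicate 2, passed in replicate 1 only, and lay 140 bp from the sktl TSS. The weakest, 517 bp upstream of insc, had 66.4, 35.9 and 41.9 and passed in neither replicate. This last peak is the one that put insc among the members with a summit within 1 kb of their TSS, and a TSS of sktl was equally near.

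At scrt, a zinc finger factor of differentiating neurons, 1 summit lay 286 bp upstream of the TSS (chr3L:3983440-3983779). It had a signal of 97.6 pooled, 55.0 in replicate 1 and 42.4 in replicate 2, and it passed in replicate 1 only. The other members of the group had no summit. At mira, the scaffold that carries Brat and Pros to the daughter cell, the strongest ranked peaks had signals of 24.0 and 26.7. At nerfin-1, which maintains the neuronal state, they were 36.3 and 23.7. At pros, the homeobox factor that ends neuroblast divisions and the longest member at 79.1 kb, they were 49.8 and 58.2. Each replicate had a passing pros peak, but at different places. That of replicate 1 lay in the 3′ UTR, 20219 bp from a pros TSS, and mRpL40 had the nearest TSS. That of replicate 2 lay 19 bp from a pros TSS, where replicate 1 had a ranked peak of 28.3 that did not pass. The longer pooled list held 2 pros peaks, with signals of 110 and 75.6.

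**Figure D2:**
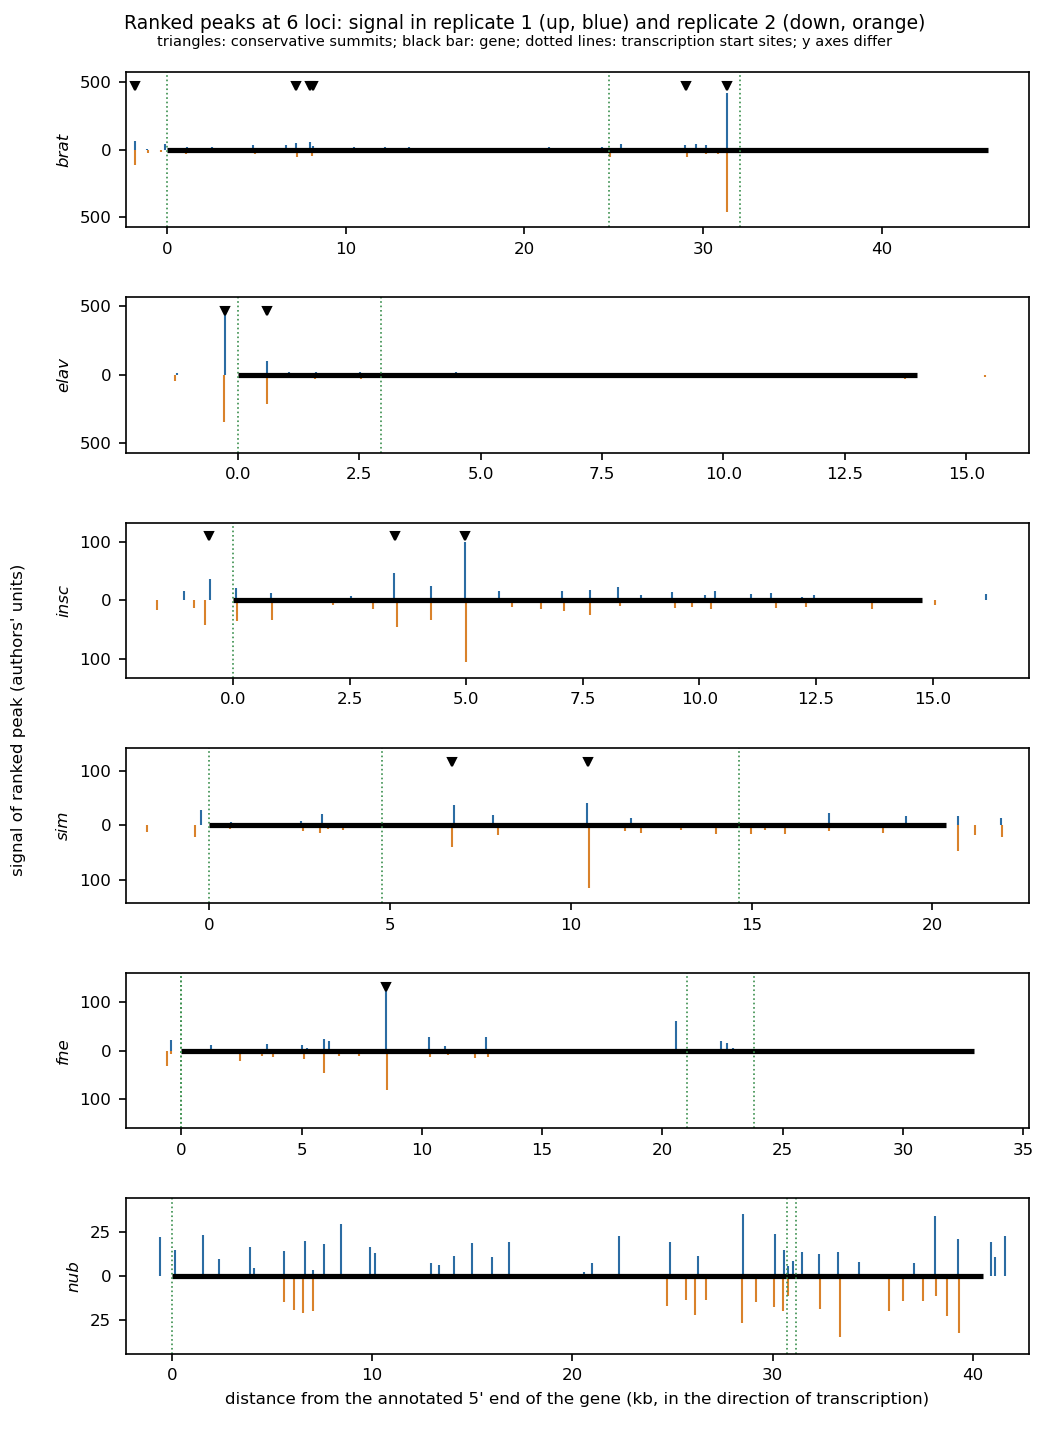
Ranked peaks at brat, elav, insc, sim, fne and nub by distance from the gene's 5′ end in kb, with signal upward for replicate 1 and downward for replicate 2 on an axis of its own for each gene. Triangles mark conservative summits, black bars the gene and dotted lines its TSSs. A single tall peak recurs in both replicates at brat, insc and fne, and 2 recur at elav. At nub there are only low peaks, up to 35.0.

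All 3 ELAV family members had a summit, where genes of like length gave 1.91. Within 1 kb of a TSS it was 2 members, above the like-length number of 1.19. Apart from this family and the division and differentiation group, no group had a member with a summit that near. These RNA-binding proteins govern splicing and 3′ UTR choice in neurons, and elav is the standard marker of the neuronal state. At elav, on the minus strand of the X chromosome (chrX:509235-523226), the strongest peak (chrX:523359-523621) had a pooled signal of 794, rank 131 of 6359. It had 454 in replicate 1 (rank 110) and 343 in replicate 2 (rank 157). It lay 264 bp upstream of the TSS. The other elav peak (chrX:522535-522724) lay in an intron 594 bp downstream of the TSS, with 318 pooled, 102 in replicate 1 and 209 in replicate 2. Both passed in both replicates, and the order of their signals was the same in each.

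The remaining family members were weaker. At fne, 1 summit lay in an intron 8488 bp downstream of the TSS (chrX:12925940-12926031), with 216 pooled, 128 in replicate 1 and 80.3 in replicate 2, and it passed in both. At Rbp9, 1 intronic summit lay 804 bp downstream of the TSS (chr2L:2957545-2957884). It had 92.2 pooled, 50.1 in replicate 1 and 40.4 in replicate 2, passed in replicate 1 only, and was absent from the longer pooled list. All 4 summits of the family had a TSS of the family member as the nearest one, and at elav and Rbp9 it was within 1 kb. At insc and brat, in contrast, other genes' TSSs were nearest to several summits, and this contrast was not tested.

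The glial genes had no summit (0 of 3, like length 1.29). At repo, the homeobox marker of lateral glia, the strongest ranked signals were 22.8 in replicate 1 and 27.0 in replicate 2. The paralogues gcm and gcm2, the switch from neuronal to glial fate, lie 26.8 kb apart. At gcm the values were 21.9 and 25.2, and at gcm2 they were 24.1 and 36.7. Poxn, which separates the identity of chemosensory from mechanosensory bristles, had no conservative summit (like length 0.553). Its strongest ranked peaks, 31.0 in replicate 1 and 37.1 in replicate 2, lay at different places, 9805 and 545 bp from a TSS. A Poxn peak with a signal of 61.8, 545 bp upstream of the TSS, stood in the longer pooled list. There the signal was 27.2 in replicate 1 and 37.1 in replicate 2.

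**Figure D3:**
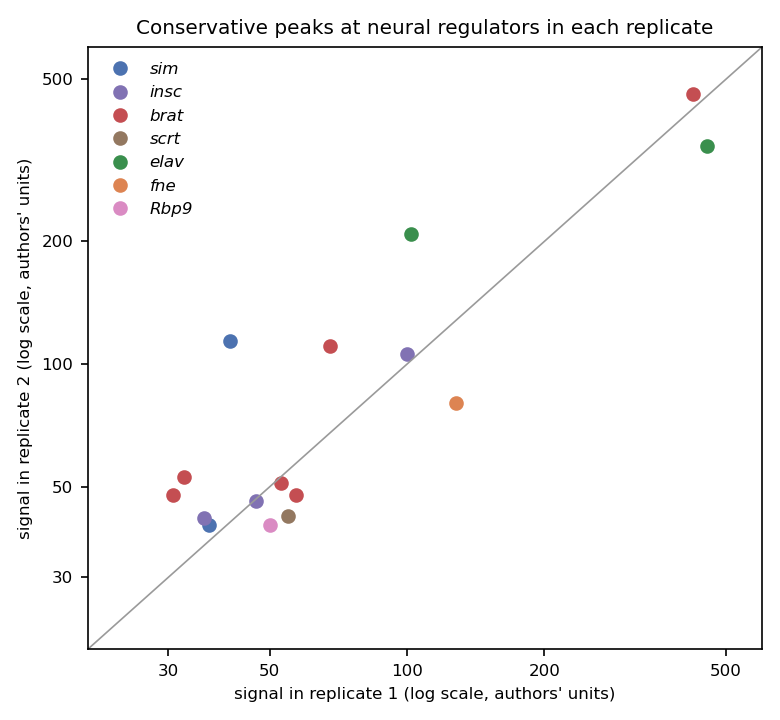
Signal of the 16 conservative peaks in member territories, replicate 1 on the horizontal and replicate 2 on the vertical axis, both on log scales in the authors' units, coloured by gene with the line of equality. The line is a guide only, since the scales of the 2 lists need not match. The strongest brat and elav peaks, at 423 and 461 and at 454 and 343, stand apart from the other 14, which lie between 30.7 and 209.

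In all, the 16 summits fell in 7 territories. A gene start of any kind lay no more than 1 kb from 8 of them, the other 8 were in introns, and 0 were exonic or intergenic. Gene starts were counted first and a territory reaches only 2 kb past the gene, which leaves little room for intergenic summits. A TSS of the member itself was within 1 kb of 6 summits, and a member's TSS was the nearest of any protein-coding gene for 10. Peaks passed in both replicates at 7 summits, in 1 replicate at 5 and in neither at 4. Their median signal was 99.8, against 120 over the conservative list, and 7 were above that list's median. The strongest brat and elav peaks stood at percentiles 98.4 and 97.9 of the list.

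Gene length went with the presence of a summit. The 20 shorter members, from 712 to 8363 bp, had none, where 37.0% of 10388 genes in that range had one. Of the 11 longer members, from 10108 to 79148 bp, 7 had one, against 65.9% of 1819 genes. The division at that length was chosen after the values were seen. In replicate 1 the counts were 0 and 8, and in replicate 2 they were 1 and 6. The long members without a summit were vnd, pdm2, nub and pros.

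**Figure D4:**
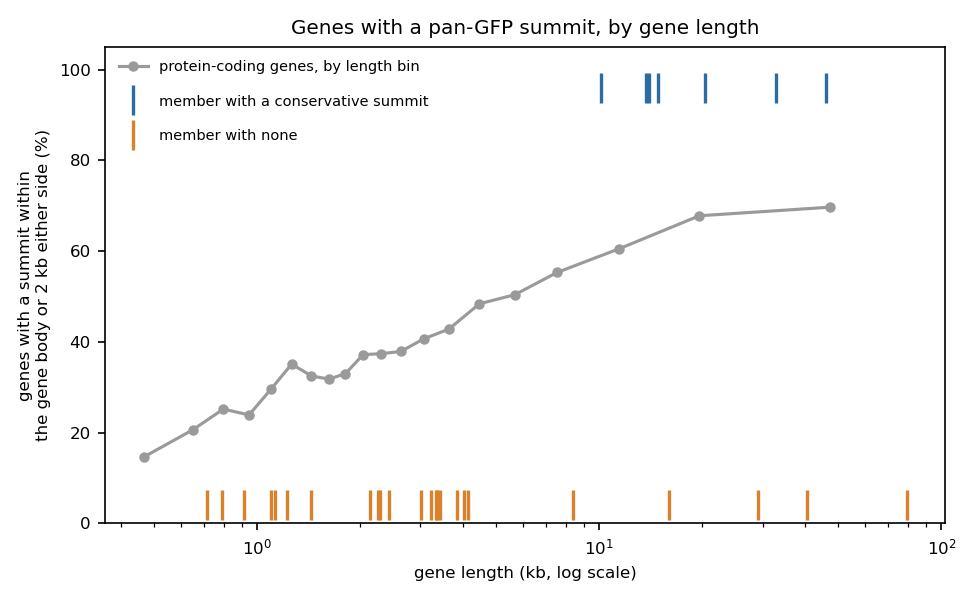
Share of protein-coding genes with a conservative summit in their territory (vertical axis, %) by the median gene length of 20 bins (horizontal axis, kb, log scale), with a tick for each member, at the top where it had a summit and at the bottom where it had none. The 7 members at the top are all at least 10.1 kb long.

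Counted by length of DNA, member territories covered 494 kb and held 32.4 summits per Mb, against 54.5 per Mb in the territories of all protein-coding genes. Ranked peaks, most of which did not pass, were nearly as dense at members as elsewhere. There were 782 per Mb in replicate 1 against 806, and 832 per Mb in replicate 2 against 889. The median of the strongest ranked signal was 26.8 over the members in replicate 1 against 31.0 over all genes, and 27.0 in replicate 2 against 34.5. Over the 24 members without a summit it was 25.4 and 24.3. These 24 were picked for lacking a summit in a list that combines both replicates, so low values were built in. Over all 31 members, the gap to all genes was wider for summits per Mb than for ranked peaks per Mb, and this was not tested.

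Several members lay close to the passing level. In the ranked list that holds all conservative peaks, that level was a −log10 global IDR of 2.00. The members just inside it there were Rbp9 at 2.57 and scrt at 2.69. Farther inside, the next was sim at 3.08, with a peak that passed in both replicates. Just outside were pros at 1.95, Poxn at 1.74, D at 1.73, pdm2 at 1.67, nub at 1.49 and gcm2 at 1.38. The pros peak nearest to the level had a signal of only 3.60. The other pooled ranked list, which holds all peaks of the longer list, placed these members differently. There pros reached 3.15, D 2.17 and Poxn 2.07, which is past the level, nub reached 1.99, and Rbp9 reached only 0.46. How the 2 pooled ranked lists differ in their making is not stated in the sources used here, so the side of the level on which Rbp9, pros, D and Poxn fell depended on the list.

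Counts of the motifs in the 16 summit windows are set beside the share of all conservative summits that hold each, with no test. The TCF core was in 2 windows, both at insc, and in 9.47% of all conservative windows. The helper site was in 0 (2.31% of all), the DREF site in 0 (1.54%), and an E-box in 7 (35.7%), at Rbp9, brat, insc and sim. GAGAG was in 6 windows (10.9% of all), at brat, elav, insc and sim. The Sox site was in 3 (33.5%), at Rbp9, brat and insc. A match describes letters in these windows and says nothing of which protein was there.

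Other genes of neural development, in lists likewise written with earlier results known, gave different counts by role. Among the partners of the bHLH factors and sense organ regulators, 9 of 10 had a summit (like length 5.65), and 3 had one within 1 kb of their TSS (like length 3.58). At da, the common partner of the proneural proteins, the peak lay 97 bp from the TSS, with 132 pooled, 64.6 in replicate 1 and 75.0 in replicate 2. In the machinery of asymmetric division, 10 of 13 had a summit (like length 7.68) and 9 had one within 1 kb of their TSS (like length 4.85). The strongest of those near a TSS was at numb, which segregates to 1 daughter and blocks Notch there, with 466 pooled, 301 in replicate 1 and 157 in replicate 2, 210 bp from the TSS. By territory, the proneural and related bHLH genes (0 of 8) and the partners and sense organ regulators (9 of 10) thus lay on opposite sides of their like-length numbers. Within 1 kb of a TSS both lay below them, at 0 against 1.46 and 3 against 3.58. The difference was not tested.

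Lists of transcription factors were nearer to the members. Other neuroblast factors had a summit at 6 of 17 genes (like length 9.46), and 3 had one within 1 kb of their TSS (like length 6.07). The strongest of those 3 was at ey, a Pax6 gene, with 386 pooled, 143 in replicate 1 and 233 in replicate 2. Neuronal identity factors had one at 5 of 19 (like length 10.8), and 4 had one that near (like length 6.84). The strongest of those 4 was at otp, a homeobox gene, with 143 pooled, 45.1 and 90.5. Genes of neuronal function had one at 8 of 15 (like length 9.69). Near a TSS it was 1 of 15 (like length 5.92), at Nrg, an adhesion molecule, with 78.6 pooled, 34.3 and 41.2. Among glial genes it was 6 of 11 (like length 5.70), and all 6 had one within 1 kb of their TSS (like length 3.80). The strongest of these was at moody, a receptor of the blood-brain barrier, with 914 pooled, 414 in replicate 1 and 510 in replicate 2. Over the 6 lists together, 42 of 83 genes had a summit, where like length gave 47.6.

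**Figure D5:**
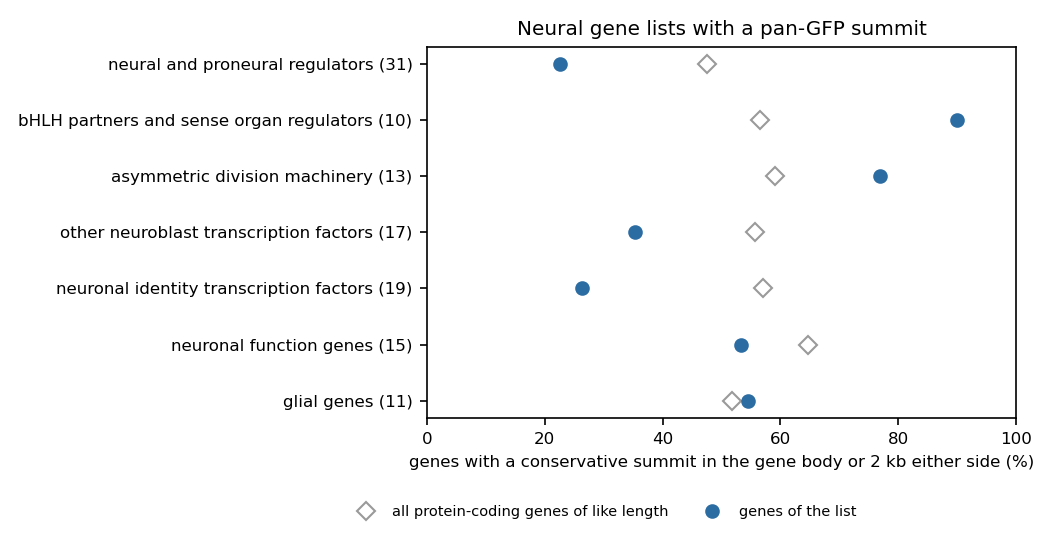
Share of genes with a conservative summit in their territory (%) for the 31 members and 6 other neural lists, with the number of genes in parentheses (filled circles) and the share among genes of like length (open diamonds). The members stand at 22.6% against 47.6%. The lists of bHLH partners, of division machinery and, narrowly, of glial genes (54.5% against 51.8%) lie to the right of their diamonds.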

How the data were processed

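Pan-GFP chromatin immunoprecipitation from whole embryos was analysed in 2 replicates of 1 group, numbered by the labels. The deposited files are peak lists on dm6, per the file headers. Each peak carries the authors' signal and summit, and the ranked lists carry the authors' −log10 global IDR. Aligner and peak caller are not given in the sources used here. Passing lists also derive from a further file whose origin is not stated. Pooled lists combine the replicates.

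Summits were placed on the Ensembl release 115 annotation. Replicate values of a pooled peak come from the ranked peak that overlapped at least 50% of the shorter of the 2 peaks. Values given as a member's strongest ranked peak were picked in each replicate separately and were not matched by place. Like-length numbers sum, over members, the share of genes in the same length bin. Motifs were sought within 50 bp of the summit. Alternatives changed the list, flank, TSS window and bins, and left out a replicate. The text names all members, the gene with the TSS nearest to each member summit, and up to 3 genes a list with the strongest peak within 1 kb of their TSS. Members and lists were chosen with earlier results of these data known, so no p-value is given. With 2 replicates, values are given for each and no SD is taken. Sequences are from the RefSeq dm6 genome. Scripts used Python 3.11.15, pandas 2.3.3, numpy 2.4.6 and matplotlib 3.10.9, and counting was checked on simulated peaks.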

Additional observations from a re-analysis of the deposited data

How the results depend on the processing

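The count of members with a summit in the territory was 7, and it was 7 without replicate 1 and 8 without replicate 2. It became 13 with a 5 kb flank, where all genes gave 54.0% and like length 18.6 members. The count within 1 kb of a TSS was 5, and it ran from 3 to 4 when a replicate was left out. It was 2 with peaks above the median signal only (all genes 16.1%, like length 5.97). With a 500 bp window it was also 2 (all genes 21.8%, like length 8.05). In place of 16 summits, the passing list of replicate 2 alone gave 12 and that of replicate 1 alone gave 14, in part at other peaks. Of the 16 summits themselves, 8 passed in replicate 2 and 11 in replicate 1. The conservative count was 7 with summits above the median signal only, and 10 with those nearest to a TSS of a member. Wherever a like-length number was computed for the same setting, the count of members was below it. This was narrowest with gene bodies alone, at 6 against 7.75, where 6 of 31 was above the all-gene share of 15.2%. The like-length number for the territory ran from 12.3 to 15.6 over its own alternatives. Of 31 alternatives, 25 stayed within 1.5 times the value reported. The merging of overlapping peaks and the demand for both replicates were added after seeing the data.

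Read depth is unknown, so no detection limit can be given for members without a peak. Peaks were not set against a control here. A gene's territory can hold peaks of its neighbours, and whole embryos give no cell type. With 2 replicates, the spread between them is a range of 2 values.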

Other observations

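Widening the territories to 5 kb added D, pros, nerfin-1, repo, gcm and gcm2. The summit added at pros had a signal of 531, passed in both replicates, and lay 86 bp from the TSSs of Irbp and mgr. The one at nerfin-1 had 112 and was nearest to mat, at 1675 bp. That at repo had 129 and lay 102 bp from the TSS of CG7156. The one at gcm had 74.9, passed in neither replicate, and lay 86 bp from the TSS of Mtpalpha, and that at gcm2 had 124 and lay 49 bp from the TSS of GlcAT-S. D alone was itself the nearest gene, at 6854 bp, and its summit had a signal of 84.6 and passed in neither replicate. At 5 of these 6 genes, the added summit was thus nearest to the start of another gene.

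Around ac, the stretch without any ranked peak was 24.4 kb in replicate 1, where the median gap on the X chromosome was 0.786 kb, and 36.9 kb in replicate 2, where it was 0.707 kb. These were the 34th and the 25th longest of that chromosome. Replicate 1 had 7 ranked peaks in the territory of sc, and replicate 2 had 0.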
